A study of Mus musculus with 7 samples.

Results

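The genes described here are 8 genes linked to the exit of T cells from the thymus, their recirculation through lymphoid organs or their survival. They include the transcription factor genes Foxo1, Klf2 and Klf3 and the sphingosine 1-phosphate (S1P) receptor genes S1pr1 and S1pr4. The others are the receptor antagonist gene Cd69, the homing receptor gene Ccr7 and the cytokine receptor gene Il7r. All 8 were taken by name, with earlier results of these data known. They are 8 of the 18193 genes on the array that had a probe set of their own. They were covered by 18 of 45037 probe sets, namely 7 for Klf3, 4 for Foxo1, 2 for Il7r and 1 for each other gene. All 8 passed the intensity filter and were among the 10874 genes tested.

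Expression was measured with 7 single-colour Affymetrix Mouse Genome 430 2.0 arrays in cells sorted from the thymus of C57BL/6J mice aged 4 to 6 weeks. Natural killer T (NKT) cells recognise lipids on CD1d, and stage 1 cells, an immature subset, were sorted here as CD1d tetramer-positive, CD24-low, CD44-negative and NK1.1-negative. Luxoid stage 1 NKT cells (n = 3 arrays) came from mice with the Luxoid mutation of Zbtb16, labelled as deficient in its product PLZF, and a Valpha14 T cell receptor transgene. Stage 1 NKT cells (n = 2) came from mice with the same transgene and no Luxoid mutation, and CD4 single-positive (CD4SP) thymocytes (n = 2) from wild-type mice without the transgene, so for either NKT group against CD4SP the cell type and the transgene cannot be told apart. The promoter of the transgene is not given in the sources used here. Every sample was a pool of mice, called a biological replicate in its label, and the number of mice in a pool is not given.

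Thymocytes that finish selection switch off the signals that hold them in the thymus and switch on receptors that draw them into the blood. FOXO1 is held out of the nucleus by the PI3K and Akt pathway; when that signal falls it activates Klf2, Ccr7 and Il7r, and KLF2 in turn activates S1pr1. S1PR1 senses S1P, which is abundant in blood and scarce in tissue, and CD69 binds S1PR1 and takes it off the surface. CCR7 guides thymocytes into the medulla and naive T cells into lymph nodes, and the interleukin 7 receptor carries a survival signal.

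Promoter windows of 250 bases before to 50 after the gene start were held for 5 of the 8 genes, namely Foxo1, Klf2, Klf3, S1pr4 and Il7r, in the RefSeq table of GRCm38.p6. They were searched on both strands, overlapping matches included, for the Foxo motif TGTTTAC and the KLF motif CCNCNCCC. The windows of both Krüppel-like factor genes and that of Il7r are shown because they hold the most and the fewest KLF matches. Klf2 lies at chr8:72318812-72319111 on the plus strand, Klf3 at chr5:64803271-64803570 on the plus strand and Il7r at chr15:9529827-9530126 on the minus strand, each printed 5′ to 3′ along its gene with KLF matches in capitals.
Klf2: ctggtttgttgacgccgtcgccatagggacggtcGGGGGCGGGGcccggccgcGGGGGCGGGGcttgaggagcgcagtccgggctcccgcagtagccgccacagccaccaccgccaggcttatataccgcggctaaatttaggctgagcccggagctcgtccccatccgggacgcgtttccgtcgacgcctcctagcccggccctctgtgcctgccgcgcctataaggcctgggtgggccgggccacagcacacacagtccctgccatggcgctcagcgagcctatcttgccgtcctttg
Klf3: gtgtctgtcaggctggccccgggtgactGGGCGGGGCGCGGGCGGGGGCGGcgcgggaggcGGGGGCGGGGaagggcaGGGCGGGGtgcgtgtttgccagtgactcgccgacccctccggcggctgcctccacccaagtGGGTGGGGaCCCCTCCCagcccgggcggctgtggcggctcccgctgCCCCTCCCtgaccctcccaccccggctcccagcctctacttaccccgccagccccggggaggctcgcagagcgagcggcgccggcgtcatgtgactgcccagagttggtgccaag
Il7r: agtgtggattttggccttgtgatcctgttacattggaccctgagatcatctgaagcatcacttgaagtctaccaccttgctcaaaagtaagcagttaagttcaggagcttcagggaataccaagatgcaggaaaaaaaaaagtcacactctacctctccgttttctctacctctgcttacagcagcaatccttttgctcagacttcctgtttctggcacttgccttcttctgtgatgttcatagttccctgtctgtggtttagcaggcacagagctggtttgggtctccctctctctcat
The KLF motif matched 10 times in the Klf3 window, 4 times in that of Klf2 and 3 times in that of Foxo1, with 0 matches for S1pr4 and Il7r. It occurs in 49.5% of the 32851 promoter windows in the table, and the 3 windows with matches were also richer in G and C (76.7%, 69.3% and 61.3%) than those of S1pr4 (41.0%) and Il7r (45.7%). The Foxo motif had 0 matches in the 5 windows and occurs in 3.65% of all windows. These counts describe letters in short windows and were not related to the expression values.

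The arrays had median intensities of 79.6 to 83.7. Over all probe sets, arrays within a group correlated at 0.9843 to 0.9916 and Luxoid with stage 1 NKT arrays at 0.9806 to 0.9924. The labelled cell types were checked with their defining genes: Cd3e, a chain of the T cell receptor complex, averaged 4697 in Luxoid NKT, 4336 in stage 1 NKT and 5544 in CD4SP, and Zbtb16 averaged 2388, 3098 and 73.5 in the same order. The Zbtb16 transcript therefore sets both NKT groups apart from CD4SP, whose label for cell type repeats the stage 1 NKT sort while their other labels name CD4SP. It does not check the loss of the PLZF protein. Pools differed in sex within every group: by Xist and the Y-linked Kdm5d, array 1 of each group gave a female signal, Luxoid array 2 and CD4SP array 2 a male one, and Luxoid array 3 and stage 1 NKT array 2 both. Markers of NK cells were under the filter in all groups, and 3 B cell markers summed to 164 to 201 in Luxoid NKT, 162 to 190 in stage 1 NKT and 237 to 250 in CD4SP arrays, and 5 myeloid markers to 242 to 266, 257 to 299 and 293 to 312. The 5 markers of thymic epithelium summed to 407 to 516 in Luxoid NKT, 342 to 401 in stage 1 NKT and 427 to 512 in CD4SP arrays. That sum was lowest in stage 1 NKT, without overlap. For 4 endothelium markers the sums were 651 to 799, 691 to 707 and 735 to 815 in the same order. The part of these markers in the results was not tested. The small number of arrays limited the precision of every value below.

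Values below are intensities of the brightest probe set of a gene, group averages are geometric means, and differences are on the log2 scale, each ± SE and followed by the limma p adjusted over the 10874 genes. A gene is said to have risen or fallen if that adjusted p was under 0.05. In Luxoid against stage 1 NKT cells 1 of the 8 genes rose, against a background of 0.901% of all genes tested that rose, and 0 fell, against 0.653% (1.55% in either direction); at an unadjusted p under 0.05, 3 were higher and 0 lower, against 4.48% and 7.12% of all genes. In stage 1 NKT against CD4SP cells 0 rose and 4 fell, where 10.8% of all genes rose and 4.08% fell (14.9% in either direction), and at an unadjusted p under 0.05 1 was higher and 5 were lower, against 20% and 9.11%. In Luxoid NKT against CD4SP cells 0 rose and 2 fell, against 11.3% and 5.51% of all genes (16.8% in either direction), and 1 was higher and 3 lower at an unadjusted p under 0.05, against 18.2% and 11.6%. The last 2 comparisons share the CD4SP arrays, and the first shares each of its groups with 1 of them.

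**Figure D1:**
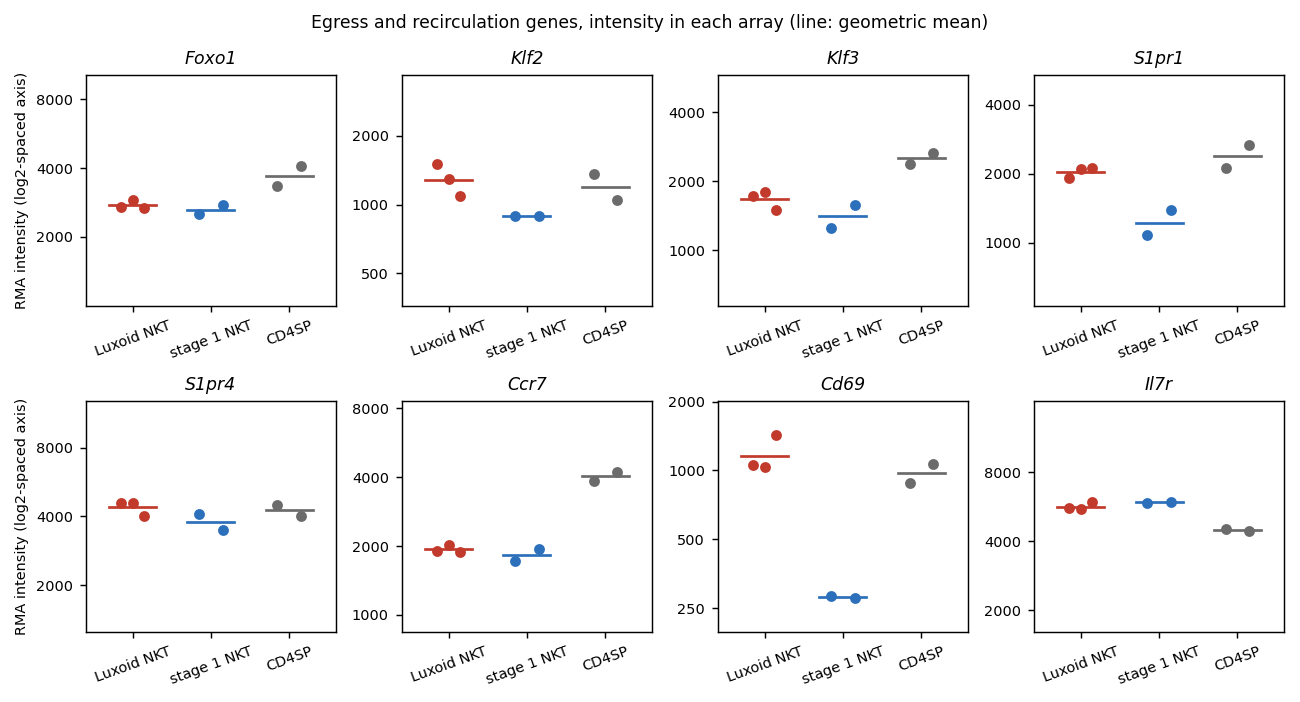
Intensity of the main probe set of each gene in each array, on an axis spaced by log2, with Luxoid NKT, stage 1 NKT and CD4SP from left to right and a line at the geometric mean. Cd69 is near 280 in both stage 1 NKT arrays and at 882 or more in the other 5 arrays, and Ccr7 is at 2021 or less in all 5 NKT arrays and at 3849 or more in both CD4SP arrays.

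Foxo1, the transcription factor at the head of this circuit, read 2694, 2908 and 2671 in Luxoid NKT, 2516 and 2746 in stage 1 NKT, and 3334 and 4075 in CD4SP arrays. All 5 NKT arrays were below both CD4SP arrays, and the NKT groups overlapped. Luxoid minus stage 1 NKT was 0.07 ± 0.14 (adjusted p = 0.918, 95% interval -0.26 to 0.40). Neither NKT group passed the threshold against CD4SP, at -0.49 ± 0.16 for stage 1 NKT (adjusted p = 0.0737) and -0.42 ± 0.14 for Luxoid NKT (adjusted p = 0.0848). Both differences from CD4SP passed when the prior of the spread was allowed to vary with intensity and made robust (adjusted p = 0.0308 and 0.0363), and with a Y-linked covariate (0.0407 and 0.0399), and that of stage 1 NKT also with the replicate number as a block (0.0333). Probe set 1416981_at of Foxo1 read 1367, 1222 and 1051 in Luxoid NKT, 1358 and 1192 in stage 1 NKT, and 1906 and 1715 in CD4SP arrays, and 1416982_at had the same pattern, with all NKT arrays below both CD4SP arrays. The dimmest, 1456529_at, ran from 139 to 215 in Luxoid NKT, 162 to 176 in stage 1 NKT and 154 to 175 in CD4SP arrays, with all groups overlapping.

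Klf2, which encodes the transcription factor that activates S1pr1, read 1501, 1292 and 1086 in Luxoid NKT, 891 and 892 in stage 1 NKT, and 1358 and 1052 in CD4SP arrays. Both stage 1 NKT arrays lay below every other array, and the Luxoid and CD4SP arrays overlapped. Luxoid minus stage 1 NKT was 0.52 ± 0.18, or 1.44-fold, with a 95% interval of 0.11 to 0.93, and did not pass after adjustment (adjusted p = 0.294). Stage 1 NKT minus CD4SP was -0.42 ± 0.20 (adjusted p = 0.195) and Luxoid NKT minus CD4SP 0.10 ± 0.18 (adjusted p = 0.757). The last of these changed sign without Luxoid array 1 (-0.0134) or CD4SP array 2 (-0.0835). Between the female pools Luxoid minus stage 1 NKT was 0.75, and between the pools with both sex signals it was 0.28, with no test.

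Klf3, which encodes a Krüppel-like repressor of transcription, read 1730, 1791 and 1501 in Luxoid NKT, 1256 and 1573 in stage 1 NKT, and 2376 and 2670 in CD4SP arrays. All NKT arrays were below both CD4SP arrays, while the NKT groups overlapped. It was 1.79-fold lower in stage 1 NKT than in CD4SP (-0.84 ± 0.17, adjusted p = 0.0136) and 1.51-fold lower in Luxoid NKT (-0.59 ± 0.16, adjusted p = 0.0351), and Luxoid minus stage 1 NKT was 0.25 ± 0.16 (adjusted p = 0.627, 95% interval -0.11 to 0.61). The stage 1 NKT fall was lost without stage 1 NKT array 1 (adjusted p = 0.111) or CD4SP array 2 (0.0966). The Luxoid fall was lost without Luxoid array 1 (0.0614) or 3 (0.0945), without CD4SP array 1 (0.0964) or 2 (0.213), with the mean of all Klf3 probe sets (0.0876), with all probe sets tested (0.0514), and without the pools with both sex signals (0.116).

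The other Klf3 probe sets differed in how far they set the NKT groups below CD4SP. Probe set 1429360_at read 526, 564 and 519 in Luxoid NKT, 463 and 401 in stage 1 NKT, and 940 and 898 in CD4SP arrays, with no overlap among the 3 groups. In a fit of all 24111 probe sets past the filter it was lower in stage 1 NKT (-1.09 ± 0.16, adjusted p = 0.00381) and in Luxoid NKT (-0.78 ± 0.14, adjusted p = 0.00970) than in CD4SP. Its Luxoid minus stage 1 NKT difference was 0.31 (adjusted p = 0.520). Probe sets 1431630_a_at, 1454666_at and 1441200_at gave -0.86, -0.83 and -0.81 for stage 1 NKT minus CD4SP, none past the threshold (adjusted p = 0.0696, 0.0682 and 0.125). For Luxoid NKT minus CD4SP they gave -0.34, -0.35 and -0.58 (adjusted p = 0.391, 0.350 and 0.204), and the Luxoid arrays overlapped CD4SP in all 3. The dim 1442920_at read 113, 95.6 and 85.2 in Luxoid NKT, 81.9 and 65.3 in stage 1 NKT, and 91.6 and 99.0 in CD4SP arrays, with -0.38 for stage 1 NKT minus CD4SP (adjusted p = 0.267) and 0.03 for Luxoid NKT minus CD4SP (adjusted p = 0.928). Its Luxoid arrays overlapped CD4SP. For Luxoid minus stage 1 NKT, 1431630_a_at, 1454666_at and 1442920_at gave 0.52, 0.48 and 0.41, each without overlap of the NKT groups. None of these passed (limma adjusted p = 0.511, 0.536 and 0.492), and 1441200_at gave 0.23 with overlap (adjusted p = 0.847). Probe set 1458487_at stayed between 41.7 and 50.7 on all arrays, under the filter.

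**Figure D2:**
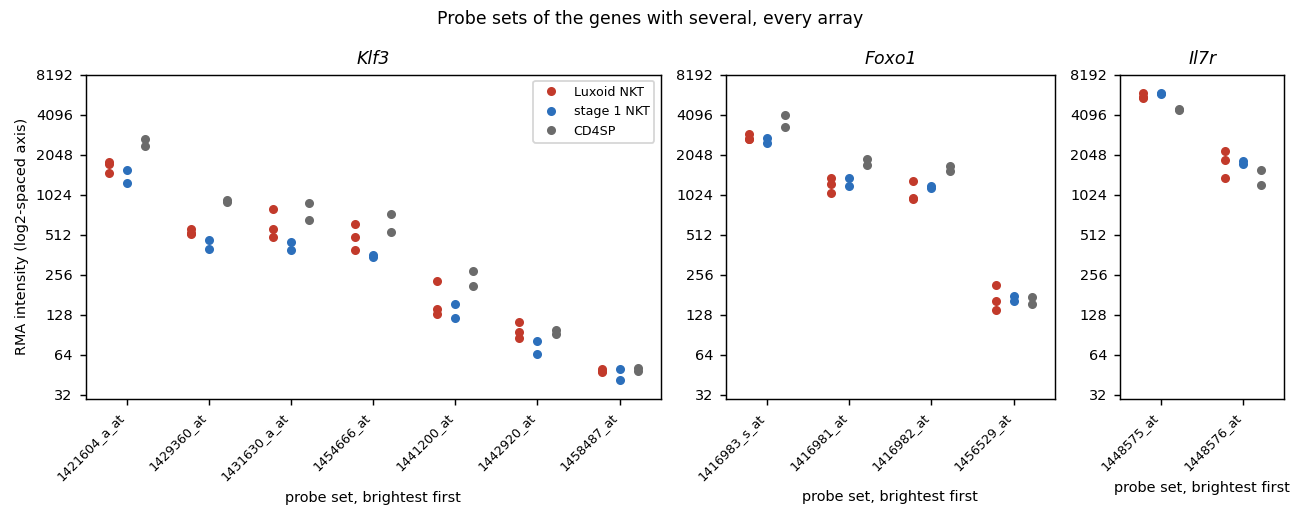
Intensity in every array for each probe set of Klf3, Foxo1 and Il7r, on an axis spaced by log2, with Luxoid NKT, stage 1 NKT and CD4SP side by side from left to right within a probe set. For the 2 brightest Klf3 and the 3 brightest Foxo1 probe sets all NKT points lie below both CD4SP points, and for the brightest Il7r probe set all lie above them.

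S1pr1, the receptor through which T cells follow S1P out of the thymus, read 1910, 2091 and 2125 in Luxoid NKT, 1077 and 1395 in stage 1 NKT, and 2122 and 2678 in CD4SP arrays. Both stage 1 NKT arrays were below every other array, and Luxoid NKT overlapped CD4SP at its upper end. S1pr1 was 1.94-fold lower in stage 1 NKT than in CD4SP (-0.96 ± 0.18, adjusted p = 0.0103), a fall that was lost without stage 1 NKT array 1 (0.0886) or CD4SP array 2 (0.0835), or without the pools with both sex signals (0.0504). Luxoid minus stage 1 NKT was 0.73 ± 0.17, or 1.66-fold, with a 95% interval of 0.35 to 1.12, and did not pass (adjusted p = 0.0918), but it passed with the robust prior that varies with intensity (0.0473) and with a Y-linked covariate (0.70, adjusted p = 0.0392). Luxoid NKT minus CD4SP was -0.22 ± 0.17 (adjusted p = 0.424, 95% interval -0.61 to 0.16). The Luxoid minus stage 1 NKT difference was 0.83 between the female pools and 0.61 between the pools with both sex signals, with no test.

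S1pr4, an S1P receptor found mainly on blood cells, read 4579, 4592 and 4020 in Luxoid NKT, 4103 and 3485 in stage 1 NKT, and 4511 and 4017 in CD4SP arrays. All groups overlapped. The differences were 0.21 ± 0.15 for Luxoid minus stage 1 NKT (adjusted p = 0.649, 95% interval -0.12 to 0.55), -0.17 ± 0.16 for stage 1 NKT minus CD4SP (adjusted p = 0.520) and 0.04 ± 0.15 for Luxoid NKT minus CD4SP (adjusted p = 0.878). The sign of the last one turned when quantile normalization was run again (-0.0151) or CD4SP array 2 was left out (-0.0396).

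Cd69 encodes the membrane protein that holds S1PR1 inside the cell, and T cell receptor signals and type I interferon both induce it. It read 1055, 1040 and 1429 in Luxoid NKT, 283 and 277 in stage 1 NKT, and 882 and 1066 in CD4SP arrays. The stage 1 NKT arrays stood far below all others, and Luxoid NKT overlapped CD4SP. Cd69 was 4.15-fold higher in Luxoid than in stage 1 NKT (2.05 ± 0.18, adjusted p = 0.000955, 95% interval 1.65 to 2.46) and 3.46-fold lower in stage 1 NKT than in CD4SP (-1.79 ± 0.19, adjusted p = 0.000579). Luxoid NKT minus CD4SP was 0.26 ± 0.18 (adjusted p = 0.376, 95% interval -0.15 to 0.67). The transcripts of S1pr1 and of its antagonist Cd69 were thus both lowest in stage 1 NKT arrays.

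The rise of Cd69 in Luxoid NKT was 1.90 between the female pools and 2.37 between the pools with both sex signals. It kept passing when any single array was left out (adjusted p up to 0.0256) and did not pass when both pools with both sex signals were left out, an alternative chosen after seeing the data (1.89, adjusted p = 0.0764); that leaves 1 stage 1 NKT array, and 10 of all genes passed. Summed intensity of 7 markers of immature CD4 and CD8 double-positive thymocytes, which can carry CD69, was 418 to 574 in Luxoid NKT, 316 to 325 in stage 1 NKT and 927 to 1075 in CD4SP arrays. Rag1, Rag2, Ptcra and Arpp21, 4 of the 7, were under the intensity filter of 82.0 in every array. Of the rest, Cd8a averaged 159 in Luxoid NKT, 87.8 in stage 1 NKT and 141 in CD4SP. Dntt averaged 84.4, 58.5 and 493 and Cd8b1 76.6, 64.7 and 245 in the same order, both with overlap of the NKT groups. Cd8a was higher in Luxoid than in stage 1 NKT (0.86 ± 0.16, adjusted p = 0.0342), a rise that was lost in 9 of 17 alternatives. Summed intensity of 6 genes induced by cell handling was 7117 to 7414 in Luxoid NKT, 6144 to 6735 in stage 1 NKT and 6510 to 7286 in CD4SP. The part of these markers in the result was not tested. In sorted bulk samples such as these, fewer cells of a type and less RNA per cell cannot be told apart.

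Ccr7, which encodes the receptor for the chemokines of the thymic medulla and lymph nodes, read 1907, 2021 and 1891 in Luxoid NKT, 1719 and 1936 in stage 1 NKT, and 3849 and 4227 in CD4SP arrays. All NKT arrays lay below both CD4SP arrays, and the NKT groups overlapped. Ccr7 was 2.21-fold lower in stage 1 NKT than in CD4SP (-1.14 ± 0.15, adjusted p = 0.00141) and 2.08-fold lower in Luxoid NKT (-1.06 ± 0.13, adjusted p = 0.00103). Luxoid minus stage 1 NKT was 0.09 ± 0.13 (adjusted p = 0.873, 95% interval -0.22 to 0.39). Both falls passed in all 19 alternative settings, as did the fall of Cd69 in stage 1 NKT against CD4SP. Markers of regulatory T cells moved with this comparison in both directions. Foxp3 averaged 171 in Luxoid NKT, 164 in stage 1 NKT and 457 in CD4SP, and Ctla4 57.2, 53.9 and 389. Foxp3 was lower than in CD4SP in stage 1 NKT (-1.48, adjusted p = 0.000640) and in Luxoid NKT (-1.42, adjusted p = 0.000397). Ctla4 was lower too (-2.85, adjusted p = 0.000135, and -2.76, adjusted p = 6.88e-05, in the same order). Il2ra averaged 53.7, 102 and 165 in Luxoid NKT, stage 1 NKT and CD4SP. Its fall passed in Luxoid NKT (-1.62, adjusted p = 0.00107) but not in stage 1 NKT (-0.70, adjusted p = 0.0737). Ikzf2 went the other way, at 1193 in Luxoid NKT, 1097 in stage 1 NKT and 495 in CD4SP, and was higher in stage 1 NKT (1.15 ± 0.28, adjusted p = 0.0279, but 0.194 without stage 1 NKT array 1, and 0.0878 and 0.163 without CD4SP array 1 and 2) and in Luxoid NKT (1.27 ± 0.26, adjusted p = 0.0111, but 0.0537 and 0.104 without CD4SP array 1 and 2). The sum of these 4 genes overlapped between groups, at 1147 to 1919 in Luxoid NKT, 1230 to 1646 in stage 1 NKT and 1413 to 1616 in CD4SP. Ikzf2 was the brightest of the 4 in each group average, so this overlap does not show the others to be alike. The part of these markers in the result was not tested.

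Il7r, which encodes the alpha chain of the interleukin 7 receptor, was the only one of the 8 genes that lay above both CD4SP arrays in every NKT array. It read 5569, 5507 and 5943 in Luxoid NKT, 5887 and 5933 in stage 1 NKT, and 4515 and 4430 in CD4SP arrays. The NKT groups overlapped. Stage 1 NKT minus CD4SP was 0.40 ± 0.14 (adjusted p = 0.0871) and Luxoid NKT minus CD4SP 0.34 ± 0.12 (adjusted p = 0.104), neither past the threshold, although both passed with the robust prior that varies with intensity (0.0139 and 0.0174). Luxoid minus stage 1 NKT was -0.06 ± 0.12 (adjusted p = 0.917, 95% interval -0.34 to 0.22). The second probe set, 1448576_at, read 1371, 2176 and 1880 in Luxoid NKT, 1754 and 1834 in stage 1 NKT, and 1203 and 1575 in CD4SP arrays, so that Luxoid NKT overlapped CD4SP there.

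**Figure D3:**
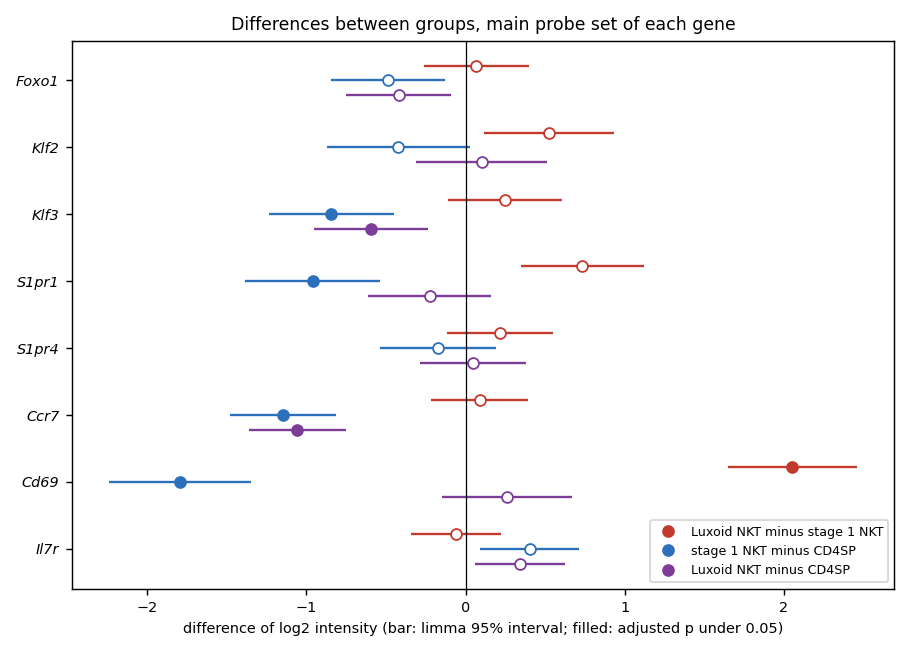
Difference of log2 intensity for each gene in the 3 comparisons, with the 95% interval of limma as a bar and filled points for an adjusted p under 0.05. Filled points are Cd69 in Luxoid minus stage 1 NKT, Klf3, S1pr1, Ccr7 and Cd69 in stage 1 NKT minus CD4SP, and Klf3 and Ccr7 in Luxoid NKT minus CD4SP.

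The 8 genes fell into a few orders of level. These orders are those of the brightest probe set of each gene. In Luxoid against stage 1 NKT, 3 genes did not overlap, all higher in Luxoid NKT (Klf2, S1pr1 and Cd69), where 10.1% of all genes tested were apart in that direction and 16.6% in the other. In stage 1 NKT against CD4SP, 6 were lower without overlap and 1 higher, where 23.6% and 36.6% of all genes were. In Luxoid NKT against CD4SP, 3 were lower without overlap (Foxo1, Klf3 and Ccr7) and Il7r higher, against 20.6% and 25.4% of all genes. The median difference of the 8 genes was 0.23 for Luxoid minus stage 1 NKT, -0.66 for stage 1 NKT minus CD4SP and -0.09 for Luxoid NKT minus CD4SP, against -0.03, 0.06 and 0.02 over all genes tested.

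Across the 7 arrays, Pearson correlations of log2 intensity followed these orders, and since the arrays fall into 3 groups they mostly describe group means. Foxo1, Klf3 and Ccr7 ran together (0.943 to 0.950) and Ccr7 ran opposite to Il7r (-0.979), whereas S1pr1 ran with Cd69 (0.888) and Klf2 with S1pr4 (0.853). Along the circuit described above, Foxo1 correlated at 0.149 with Klf2, 0.950 with Ccr7 and -0.928 with Il7r, and Klf2 at 0.57 with S1pr1. Among other genes whose group means span at least 1 on the log2 scale, those most like Cd69 were Chl1 (0.973), Calhm6 (0.971) and Hvcn1 (0.953), and those most like S1pr1 were Hvcn1 (0.974), Il4ra (0.961), a chain of the interleukin 4 receptor, and Il6st (0.957), the shared signal chain of interleukin 6 family receptors. Most like Ccr7 were Cd4 (above 0.999), which averaged 2228 in Luxoid NKT, 2052 in stage 1 NKT and 6271 in CD4SP, Igsf23 (0.997) and Bicdl1 (0.994). Nr4a1, a nuclear receptor gene induced by T cell receptor signals, was the closest to Klf3 (0.982), followed by Ms4a6c (0.969) and Chchd10 (0.969), and it was the third closest to Foxo1 (0.963), after Tbx6 (0.976) and Chchd10 (0.970). Fam241a was the closest to both Klf2 (0.902) and S1pr4 (0.913), followed by Prkd2 (0.845) and Slc25a12 (0.843) for Klf2 and by Bhlhe40 (0.821) and Tent5c (0.820) for S1pr4. Phactr2 (0.994), Tmbim1 (0.993) and Nedd4 (0.992) were the closest to Il7r.

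The related lists below are to be read against all genes tested. In Luxoid against stage 1 NKT 0.901% of these rose and 0.653% fell. In stage 1 NKT against CD4SP 10.8% rose and 4.08% fell, and in Luxoid NKT against CD4SP 11.3% and 5.51%. At an unadjusted limma p under 0.05, 4.48%, 20% and 18.2% were higher and 7.12%, 9.11% and 11.6% lower in the same order. Among 12 tested genes of Foxo factors and the PI3K and Akt pathway, 1 rose and 0 fell in Luxoid against stage 1 NKT. In stage 1 NKT against CD4SP 0 rose and 3 fell, and in Luxoid NKT against CD4SP 1 rose and 2 fell. The gene that rose in Luxoid NKT was Sgk1, a kinase that, like Akt, phosphorylates FOXO proteins. It read 2618, 2041 and 2835 in Luxoid NKT, 819 and 494 in stage 1 NKT, and 1198 and 1168 in CD4SP arrays. The 3 groups did not overlap, with Luxoid NKT the highest and stage 1 NKT the lowest. Luxoid minus stage 1 NKT was 1.96 ± 0.23 (adjusted p = 0.00399, and 0.128 without both pools with both sex signals), and Luxoid NKT minus CD4SP 1.06 ± 0.23 (adjusted p = 0.0148, but 0.0869 without CD4SP array 1 and 0.105 without array 2). Stage 1 NKT minus CD4SP was -0.90 ± 0.25 (adjusted p = 0.0471) and was lost in 8 of 19 alternatives. It did not pass without any 1 of 5 arrays or without the pools with both sex signals. The same held with no intensity filter (adjusted p = 0.0655) and with all probe sets tested (0.0667).

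Pik3ip1, an inhibitor of PI3K, was lower than in CD4SP in stage 1 NKT (-1.11 ± 0.16, adjusted p = 0.00237, but 0.0527 without the pools with both sex signals) and in Luxoid NKT (-0.93 ± 0.14, adjusted p = 0.00298). Foxp1, a forkhead factor that keeps T cells quiescent, was lower in stage 1 NKT (-1.16 ± 0.17, adjusted p = 0.00343, but 0.0526 without those pools) and in Luxoid NKT (-0.79 ± 0.16, adjusted p = 0.0108, but 0.103 without CD4SP array 2 and 0.0628 without those pools). Both genes were below both CD4SP arrays in all NKT arrays. Foxo3, which encodes a relative of FOXO1, did not pass in any comparison, with stage 1 NKT minus CD4SP at -0.58 ± 0.21 (adjusted p = 0.109).

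Of 9 other Krüppel-like factors tested, 0 rose or fell in Luxoid against stage 1 NKT (limma, 0 at an unadjusted p under 0.05 too), while 2 rose and 1 fell in each NKT group against CD4SP. Klf7 averaged 364 in Luxoid NKT, 392 in stage 1 NKT and 992 in CD4SP, and was lower in stage 1 NKT (-1.34 ± 0.22, adjusted p = 0.00469) and Luxoid NKT (-1.44 ± 0.20, adjusted p = 0.00159) than in CD4SP. Klf9, a factor induced by glucocorticoids, read 364, 567 and 262 in Luxoid NKT, 276 and 242 in stage 1 NKT, and 62.8 and 47.3 in CD4SP arrays, both under the filter. Relative to CD4SP it was at least 4.61-fold higher in Luxoid NKT (adjusted p = 0.000387) and at least 3.15-fold higher in stage 1 NKT (adjusted p = 0.00258). Klf12 was dim, at 78.8 in Luxoid NKT, 86.9 in stage 1 NKT and 44.5 in CD4SP, and its rises against CD4SP (adjusted p = 0.0336 for Luxoid NKT and 0.0283 for stage 1 NKT) were lost in 8 and 4 of 17 alternatives.

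The S1P receptors, enzymes, transporters and coupling proteins gave 11 tested genes. In limma, 0 rose or fell in Luxoid against stage 1 NKT and 0 in stage 1 NKT against CD4SP, with 2 and 4 at an unadjusted p under 0.05, and 2 rose and 1 fell in Luxoid NKT against CD4SP. The one that fell was Sphk2, a kinase that makes S1P, at 266, 324 and 271 in Luxoid NKT, 391 and 419 in stage 1 NKT, and 526 and 501 in CD4SP arrays (Luxoid NKT minus CD4SP -0.85 ± 0.14, adjusted p = 0.00468, but 0.0817 with the mean of its probe sets). The Sphk2 groups did not overlap, with Luxoid NKT the lowest. Those that rose were Plpp2, a lipid phosphate phosphatase (0.95, adjusted p = 0.00822, but 0.0802 without CD4SP array 2), and the G protein gene Gnai3 (0.83, adjusted p = 0.0132, but 0.120 without CD4SP array 2). S1pr5 was under the filter in every array (20.8 to 28.7). Among 18 genes of the thymocyte migration machinery, among them G protein and actin regulators, 0 rose or fell in any comparison (1 at an unadjusted p under 0.05 for Luxoid against stage 1 NKT, and 2 for each NKT group against CD4SP).

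Of 15 other homing and adhesion receptors tested against CD4SP, 6 rose and 0 fell in stage 1 NKT and 5 rose and 1 fell in Luxoid NKT. Ccr9, the receptor for the thymic and gut chemokine CCL25, averaged 3530 in Luxoid NKT, 3473 in stage 1 NKT and 1020 in CD4SP, higher in stage 1 NKT (1.77 ± 0.19, adjusted p = 0.000477) and in Luxoid NKT (1.79 ± 0.17, adjusted p = 0.000224). Cxcr6, a receptor of NKT cells and effector T cells, exceeded its CD4SP level at least 6.16-fold in Luxoid NKT and at least 11.1-fold in stage 1 NKT. Itgae, the integrin chain CD103 that binds E-cadherin on epithelium, averaged 1066 in Luxoid NKT, 2584 in stage 1 NKT and 104 in CD4SP, and Ccr4, a chemokine receptor of the thymic medulla and skin, 1093, 2272 and 205. In Luxoid against stage 1 NKT 0 rose and 2 fell, Ccr2 and Cxcr3. The chemokine receptor Ccr2 read 256, 281 and 413 in Luxoid NKT, and 1776 and 1732 in stage 1 NKT (-2.50 ± 0.27, adjusted p = 0.00266, but 0.0521 without stage 1 NKT array 2). Cxcr3, a chemokine receptor of effector T cells, was dim, at 41.8, 29.5 and 36.3 in Luxoid NKT, and 69.3 and 87.0 in stage 1 NKT (adjusted p = 0.0208, lost in 8 of 18 alternatives).

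Among 12 tested partners and signalling genes of the interleukin 7 receptor, 0 rose or fell in Luxoid against stage 1 NKT (limma, 2 at an unadjusted p under 0.05), whereas 0 rose and 6 fell in stage 1 NKT and 0 rose and 3 fell in Luxoid NKT against CD4SP. Their median difference was 0.24 for Luxoid minus stage 1 NKT, -0.57 for stage 1 NKT minus CD4SP and -0.31 for Luxoid NKT minus CD4SP. Over all genes tested these medians were -0.03, 0.06 and 0.02. Bcl2l11, which encodes the death protein BIM, averaged 1108 in Luxoid NKT, 683 in stage 1 NKT and 2515 in CD4SP, and was lower in stage 1 NKT (-1.88 ± 0.24, adjusted p = 0.00135) and in Luxoid NKT (-1.18 ± 0.22, adjusted p = 0.00675, but 0.0772 without CD4SP array 2). The survival gene Bcl2 averaged 4804 in Luxoid NKT, 3905 in stage 1 NKT and 6838 in CD4SP. It was lower in stage 1 NKT (-0.81 ± 0.15, adjusted p = 0.00873) and in Luxoid NKT (-0.51 ± 0.14, adjusted p = 0.0369). The stage 1 NKT fall was lost in 3 of 19 alternatives, among them without stage 1 NKT array 2 or CD4SP array 2. The Luxoid NKT fall was lost in 11 of 19. Members that fell thus included both a death gene and a survival gene.

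In the list of quiescence and naive T cell factors, 11 tested, 1 rose and 0 fell in Luxoid against stage 1 NKT, 2 rose and 4 fell in stage 1 NKT against CD4SP, and 2 rose and 5 fell in Luxoid NKT against CD4SP. Bcl6, a transcriptional repressor, read 439, 441 and 391 in Luxoid NKT, 167 and 142 in stage 1 NKT, and 639 and 646 in CD4SP arrays, with no overlap. It was higher in Luxoid than in stage 1 NKT (1.46 ± 0.14, adjusted p = 0.00143, and 0.0866 without both pools with both sex signals). Bach2, a repressor of effector genes, was lower than in CD4SP in stage 1 NKT (-2.71 ± 0.22, adjusted p = 0.000139) and in Luxoid NKT (-1.78 ± 0.20, adjusted p = 0.000638). Satb1, a chromatin organiser of thymocytes, was lower in stage 1 NKT (-1.04, adjusted p = 0.00321, but 0.0619 without those pools) and in Luxoid NKT (-1.18, adjusted p = 0.000784).

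Of 14 tested genes that T cell receptor signals induce along with Cd69, 0 rose and 1 fell in Luxoid against stage 1 NKT. Their median was 0.24, against -0.03 over all genes tested. At an unadjusted limma p under 0.05, 6 were higher in Luxoid NKT (Egr1, Egr2, Egr3, Nr4a1, Nr4a3 and Tnfrsf9) and 2 lower (Icos and Il2ra). Of all genes tested, 4.48% were higher and 7.12% lower at that threshold. None of the 6 higher genes passed after adjustment (limma adjusted p = 0.0617 to 0.390). The one that fell was the costimulator gene Icos, at 3298, 2722 and 2652 in Luxoid NKT, 6599 and 5867 in stage 1 NKT, and 3135 and 2778 in CD4SP arrays (Luxoid minus stage 1 NKT -1.11 ± 0.15, adjusted p = 0.00946, but 0.125 without stage 1 NKT array 1 and 0.0807 without array 2). Against CD4SP, 2 of these genes rose and 6 fell in stage 1 NKT, and 2 rose and 7 fell in Luxoid NKT. Nr4a1 read 232, 305 and 225 in Luxoid NKT, 149 and 208 in stage 1 NKT, and 685 and 864 in CD4SP arrays, lower in both NKT groups (stage 1 NKT -2.13 ± 0.23, adjusted p = 0.000528; Luxoid NKT -1.61 ± 0.21, adjusted p = 0.00115). Tnfrsf4, which encodes the costimulator OX40, averaged 92.4 in Luxoid NKT, 90.1 in stage 1 NKT and 565 in CD4SP, and had the lowest adjusted p of the list in both comparisons with CD4SP (1.35e-05 for Luxoid NKT and 2.99e-05 for stage 1 NKT). Egr3, another early response gene, was higher than in CD4SP in Luxoid NKT (1.23 ± 0.14, adjusted p = 0.000538). It was also higher in stage 1 NKT (0.66 ± 0.15, adjusted p = 0.0201), a rise that was lost in 6 of 19 alternatives. Of 9 interferon-stimulated genes 0 rose and 1 fell in Luxoid against stage 1 NKT (median -0.16, against -0.03 over all genes tested). The one that fell was Oasl2, at 525 in Luxoid NKT and 905 in stage 1 NKT (adjusted p = 0.0278, lost in 10 of 19 alternatives).

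**Figure D4:**
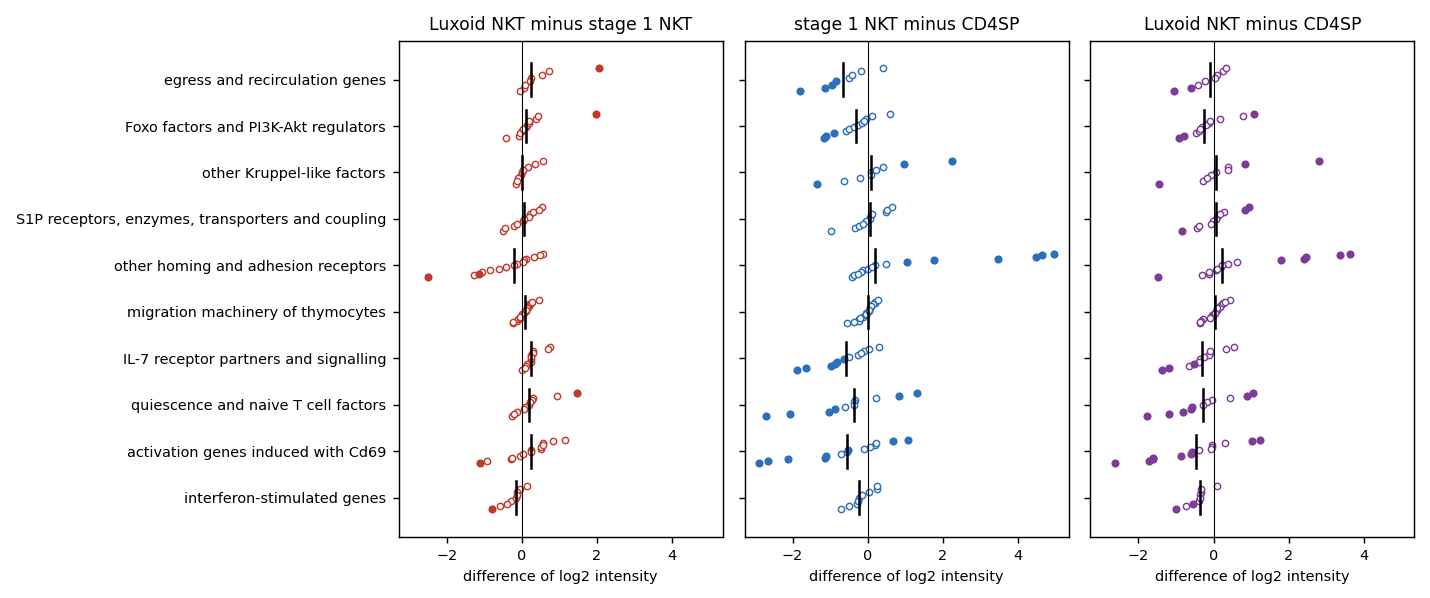
Difference of log2 intensity of every tested gene in the 8 genes and in 9 related lists, one panel per comparison, with filled points for an adjusted p under 0.05 and a black line at the median of each list. Cd69 is the one filled point of the top line in Luxoid minus stage 1 NKT, and the migration machinery has no filled point in any panel.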

How the data were processed

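Arrays of 7 samples were analysed. Per the labels' protocols, RNA of sorted cells was purified with TRIzol and RNeasy columns, amplified with the NuGEN WT-Ovation Pico system and labelled as biotin cDNA. RMA and Affymetrix Expression Console are named by the submitters' processing notes, without versions; the build behind the annotation is not given. The deposited values are linear intensities from 3.08 to 20875, of which log2 was taken. RMA normalizes arrays by quantiles, so a shift of all genes together would not be seen, and amplification can compress differences.

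The platform annotation gave 1 gene symbol for 34945 of 45037 probe sets, several for 932 and none for 9160; only the first kind was used, and 34741 of these matched RefSeq by gene ID. The brightest probe set per gene was tested if it reached 82.0, the 50th percentile of all values, on at least 2 arrays. Against a group with all its arrays under 82.0, the fold is the brighter mean over 82.0, written as at least. In R 4.3.3, lmFit and eBayes of limma 3.58.1 fitted a mean per group over the 7 arrays (4 residual and 4.49 prior degrees of freedom), with Benjamini-Hochberg adjustment over 10874 genes and a threshold of 0.05. The fit was first run on simulated data with independent normal noise and no sex or replicate structure. Recovery of small changes was not required of that run, so it does not cover most differences given here.

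The 8 genes and the related lists were chosen with earlier results of these data known, and lists are described by counts and medians only. Genes were named by a rule: all probe sets of the 8 genes, Zbtb16, up to 4 called genes per list and comparison by adjusted p, direct partners such as Foxo3, marker genes, and the 3 most correlated genes for each gene. Some called genes within this rule, such as Socs3 and Tob1, are not described. Egr1, Egr2, Nr4a3 and Tnfrsf9 were named after their values were seen. Alternatives that leave out pools by sex signal were added after the data were seen. Alternatives were the replicate number as a block, other intensity filters, the mean of probe sets, all probe sets, only the groups compared, another prior, array weights, quantile normalization again, median centring, a Y-linked covariate and leaving out each array.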

Additional observations from a re-analysis of the deposited data

How the results depend on the processing

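Over the 8 genes, 3 comparisons and 19 alternative settings, 429 of 456 values kept their direction and side of the threshold, 9 newly passed, 13 no longer passed and 5 changed sign. The sign changes were all in differences that had not passed: Foxo1 in Luxoid minus stage 1 NKT (-0.0389 with the mean of probe sets), S1pr4 in Luxoid NKT minus CD4SP (-0.0151 with quantile normalization again, and -0.0396 to 0.128 when each array was left out) and Klf2 in the same comparison (-0.0835 to 0.285 when each array was left out, and -0.0134 without Luxoid array 1).

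The number of the 8 genes called in Luxoid against stage 1 NKT was 2 with the prior that varies with intensity, 2 with the Y-linked covariate and 0 without both pools with both sex signals. In stage 1 NKT against CD4SP it was 6 with that prior (Foxo1 and Il7r newly passed), 5 with the covariate and 3 without those pools. In Luxoid NKT against CD4SP it was 4 with that prior (1 higher and 3 lower), 1 with the mean of probe sets, 1 with all probe sets tested and 1 without those pools. When each array was left out in turn, 1 of the 8 genes was called in Luxoid against stage 1 NKT each time, 2 to 4 in stage 1 NKT against CD4SP and 1 to 2 in Luxoid NKT against CD4SP. Over all genes these ranges were 55 to 178, 643 to 1846 and 866 to 1726 called. Without the pools with both sex signals 10, 520 and 918 genes were called in the same order of comparisons, and with all probe sets tested 2579 probe sets for stage 1 NKT and 3187 for Luxoid NKT against CD4SP. Leaving out those pools also ended the Luxoid against stage 1 NKT calls of Icos (adjusted p = 0.248) and Ccr2 (0.0866), and the Luxoid NKT against CD4SP calls of Bcl2l11 (adjusted p = 0.0594), Plpp2 (0.0518) and Gnai3 (0.0607).

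With the replicate number as a block 170, 2616 and 2299 of all genes and 1, 5 and 2 of the 8 genes were called. The labels do not say that a number marks a shared litter or day, and only 2 numbers are shared between groups. Same-numbered arrays deviated together (r = 0.334 to 0.491), which is a hint from the data only. In a group of 2 arrays the deviations from the mean mirror each other, so these correlations are not independent. The number also ran partly with sex, since array 1 of each group gave a female signal, so a shared day and sex cannot be told apart. With 2 or 3 pools a group the differences of the 8 genes had SEs of 0.12 to 0.20, so genes that did not pass are not shown to be alike.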
